A study of Danio rerio with 36 samples.

Results

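The genes described here are those with lower transcript levels in larval zebrafish eyes that carried a heat-inducible bmp4 transgene than in eyes of their controls, in each of 3 numbered pairs of libraries. A gene was taken when it averaged at least 2 TPM (a transcript level scaled for gene length and library size) in the controls and when the log2 of the ratio of bmp4 to NO_bmp4, each with 0.5 TPM added, was -0.5 or less in pairs 11, 12 and 13. Of 31916 gene identifiers in the tables, 17029 reached the TPM minimum, and 70 of these (0.411%) met the rule. Leaving out 2 genes by name gave the 68 members. The members were thus chosen by their TPM in the bmp4 and NO_bmp4 libraries, and these values are given below as a description, without a test. By the same limit in the other direction, 66 genes (0.388%) were higher in all 3 pairs.

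The libraries came from 12 groups of 3. The bmp4 group held whole eyes of larvae transgenic for hsp70l:eGFP-bmp4, where the heat shock promoter hsp70l drives bmp4 joined to a green fluorescent protein, while NO_bmp4 held whole eyes of wild-type larvae, both at 5 days. The shh group held whole eyes of larvae transgenic for hsp70l:shha-eGFP and NO_shh those of wild-type larvae, also at 5 days. At 1 month, lrp2-/- fish and wild-type fish of a background named ZDR were each dissected into 4 kinds of sample, namely the retina, the retinal pigment epithelium (RPE), the sclera with the choroid, and the undivided eye. The labels give neither a scheme of heat shock nor an lrp2 allele, leave unsaid whether replicate libraries stem from separate animals, and name no shared family for mutants and wild type. All p-values below therefore reflect spread among libraries alone, possibly technical spread, and genotype and family cannot be told apart.

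BMP4 is a secreted ligand that acts through paired receptors and SMAD proteins, and in the vertebrate eye it marks the dorsal side of the optic cup. The homeobox proteins VAX1 and VAX2 mark the ventral side, and BMP signalling from the dorsal side is known to restrict them. LRP2, or megalin, is a large endocytic receptor of the RPE and ciliary epithelium. Loss of it gives enlarged, myopic eyes in human, mouse and zebrafish.

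Total counts were between 17543343 and 26708466 per library. The transgene's gene stood out where the labels place it. BMP4 was at 133.5, 147.44 and 118.82 TPM in the bmp4 libraries, against 3.84, 3.46 and 3.75 TPM in NO_bmp4, where libraries are given in the order 11, 12, 13 here and below, and native and transgenic transcripts were not separated. SHH (ENSDARG00000068567) was at 31.92, 94.58 and 14.4 TPM in shh and at 4.19, 11.34 and 4.19 TPM in NO_shh. LRP2 was at 14.17, 16.2 and 15.74 TPM in mutant retina, against 20.85, 20.07 and 21.06 TPM in wild-type retina. In the other tissues its groups overlapped, at 6.24 to 12.39 TPM in mutant RPE and 10.16 to 10.98 TPM in wild-type RPE, 4.66 to 9.94 TPM in mutant whole eyes and 7.94 to 11.08 TPM in wild-type whole eyes. In sclera with choroid it was at 0.63 to 1.05 TPM in mutants and 0.53 to 1.09 TPM in wild type. A transcript level does not check a change in the protein. Library 13 of shh stood apart, with a median Spearman correlation of 0.782 to its own group, against 0.871 and 0.885 for the other libraries of shh and 0.932 or more for all other libraries. Wild-type retina library 12 stood apart in its lens genes, whose list summed to 59122.56 TPM there, against 522.64 and 597.22 TPM in the other wild-type retina libraries and 659.43 to 719.62 TPM in mutant retina. The RPE dissections carried their tissue's markers. Summed TPM of the list of RPE and melanin genes was 19407.37 to 25468.19 in wild-type RPE, 567.2 to 610.15 in retina and 503.48 to 563.73 in sclera with choroid. A list of genes of cornea and surface epithelium was high in sclera with choroid of wild type, with sums of 118245.91 to 140880.11 TPM, and reached 15526.65 to 18369.23 TPM in RPE and 382.02 to 828.94 TPM in retina.

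The members were modest in level and in change. Their median level in NO_bmp4 was 6.05 TPM, against 12.6 TPM for all genes past the minimum, and 29 of 68 averaged under 5 TPM there while 5 averaged over 50. Over the members, the median of the mean log2 ratio was -0.87, and the medians by pair were -0.86, -0.82 and -0.82, against 0.08, 0.03 and 0.12 for all genes past the minimum. In 49 of 68 members every bmp4 library was below every NO_bmp4 library, a pattern that 2.78% of all genes past the minimum showed, and the rule itself favours it. The groups overlapped in the other 19. Only 9 members had a log2 ratio of -1 or less in every pair, and 8 members had fewer than 50 counts in all 6 libraries together. In whole eyes, fewer cells of a type and less RNA per cell cannot be told apart.

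The members include 4 genes for transcription factors known from eye or head development. VAX2 was at 11.57, 8.03 and 8.68 TPM in bmp4, against 23.56, 18.48 and 17.54 TPM in NO_bmp4, with log2 ratios of -0.99, -1.15 and -0.97. VAX1 was at 7.26, 6.83 and 5.52 TPM in bmp4, against 13.03, 11.55 and 9.36 TPM in NO_bmp4. Neither gene had a bmp4 library as high as its lowest control. EMX2, a homeobox factor of forebrain and urogenital development, was at 3.9, 3.72 and 3.8 TPM in bmp4, against 7.53, 8.59 and 6.78 TPM in NO_bmp4. The forkhead gene foxi2 was at 1.54, 1.79 and 0.97 TPM in bmp4, against 3.62, 4.3 and 2.59 TPM in NO_bmp4. All 4 factors were separated between the groups without overlap, as were 49 of all 68 members, a pattern that the rule favours.

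Other genes of the ventral eye were split, while most other genes of the dorsal eye were higher. Of 17 other genes of a ventral retina list past the TPM minimum, 6 were lower and 7 higher in all 3 pairs, against 10.4% and 34.6% of all genes past the minimum. The receptor gene bmpr1ba was among the lower ones, with log2 ratios of -0.67, -0.87 and -0.38, and the ventral gene CYP1B1 among the higher ones, with 0.94, 0.69 and 0.78. A dorsal list holds 1 member, BMP2 (ENSDARG00000041430), which is lower by the rule and is given below. Of 13 other genes of the dorsal list, 10 were higher and 1 was lower in all 3 pairs, and the higher ones include BMP4 itself. The lower one was the second BMP2 gene (ENSDARG00000013409), with log2 ratios of -0.42, -1.16 and -1.14. The T-box factor TBX5 (ENSDARG00000024894) was higher, with 0.34, 0.24 and 0.67.

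**Figure D1:**
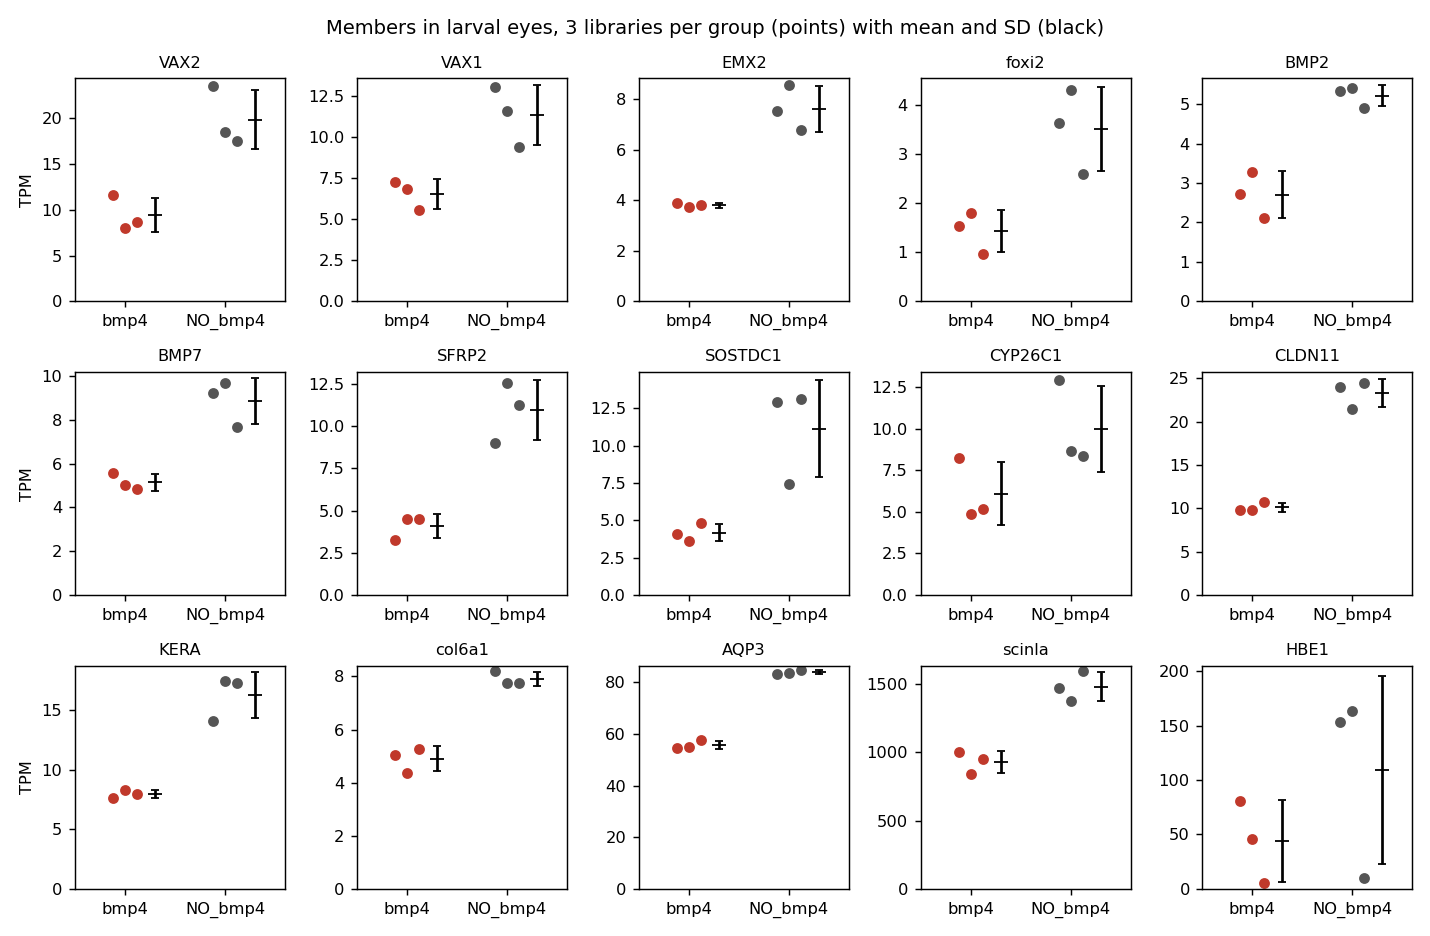
Level in TPM of 15 members in bmp4 (red, left) and NO_bmp4 (grey, right) larval eyes; points are the 3 libraries of a group in the order 11, 12 and 13, black marks the mean and SD, and each panel starts at 0. In 14 of the panels no bmp4 library reaches a NO_bmp4 library, a pattern that the rule favours. In HBE1 control library 13, at 9.72 TPM, lies below bmp4 libraries 11 and 12.

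Other secreted ligands and their modulators formed a further group. BMP2 (ENSDARG00000041430), a ligand of the same family as BMP4, was at 2.71, 3.29 and 2.11 TPM in bmp4, against 5.33, 5.4 and 4.9 TPM in NO_bmp4. BMP7, which can pair with other BMPs, was at 5.57, 5.02 and 4.82 TPM in bmp4, against 9.22, 9.67 and 7.66 TPM in NO_bmp4. SOSTDC1, a secreted antagonist of BMPs and Wnts, was at 4.1, 3.63 and 4.81 TPM in bmp4, against 12.9, 7.4 and 13.09 TPM in NO_bmp4. The rule chose these ligands and this antagonist for being lower, so their shared direction is not read as a result. The repulsive guidance molecule gene rgmd, of a family that includes BMP co-receptors, was at 16.64, 17.42 and 17.08 TPM in bmp4 and at 26.96, 27.92 and 28.31 TPM in NO_bmp4. TGFB2, PDGFC and the receptor-like PDGFRL were members too, with weakest pairs of -0.51, -0.51 and -0.56.

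Most other genes of the BMP pathway went the other way. Of 36 genes of a BMP list that are not members, 25 were higher (69.4%) and 6 lower (16.7%) in all 3 pairs, BMP4 counted among the higher. Of all genes past the minimum, 34.6% were higher and 10.4% lower. The feedback inhibitor SMAD6 (ENSDARG00000031763) had log2 ratios of 2.11, 1.87 and 1.95, the SMAD gene smad9 had 2.72, 2.36 and 3.12, and the target ID1 had 1.4, 0.99 and 1.19. Receptor genes split, with BMPR1A (ENSDARG00000019728) at 0.79, 0.73 and 0.74 and bmpr1bb at -0.3, -0.46 and -0.18. BMP5 and BMP6 were lower in all pairs without reaching the limit, with -0.24, -0.12 and -0.5 for BMP5 and -0.14, -0.39 and -0.12 for BMP6. The BMP list shares genes with the dorsal list, such as BMP4 and BMP2, and with the ventral list, such as bmpr1ba and bmpr1bb. The counts of the 3 lists are therefore not separate observations. These values stand as a description, since the same libraries chose the members.

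SFRP2, a secreted modulator of Wnt signalling, had the most negative weakest pair among members with a symbol. It was at 3.27, 4.48 and 4.48 TPM in bmp4, against 9.02, 12.53 and 11.28 TPM in NO_bmp4. Of 21 other genes of a Wnt list, 6 were lower (28.6%) and 7 higher (33.3%) in all 3 pairs, against 10.4% and 34.6% of all genes past the minimum. SFRP1 was a lower one with -0.51, -0.65 and -0.29. CYP26C1, an enzyme that degrades retinoic acid, was at 8.25, 4.84 and 5.14 TPM in bmp4, against 12.94, 8.64 and 8.34 TPM in NO_bmp4. Its highest bmp4 library lay just below its lowest control. Of 42 other genes of retinoid handling, 5 were lower and 14 higher in all 3 pairs, close to the shares of all genes, and CYP26A1, of the same enzyme family, was higher with 0.69, 0.9 and 0.64.

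**Figure D2:**
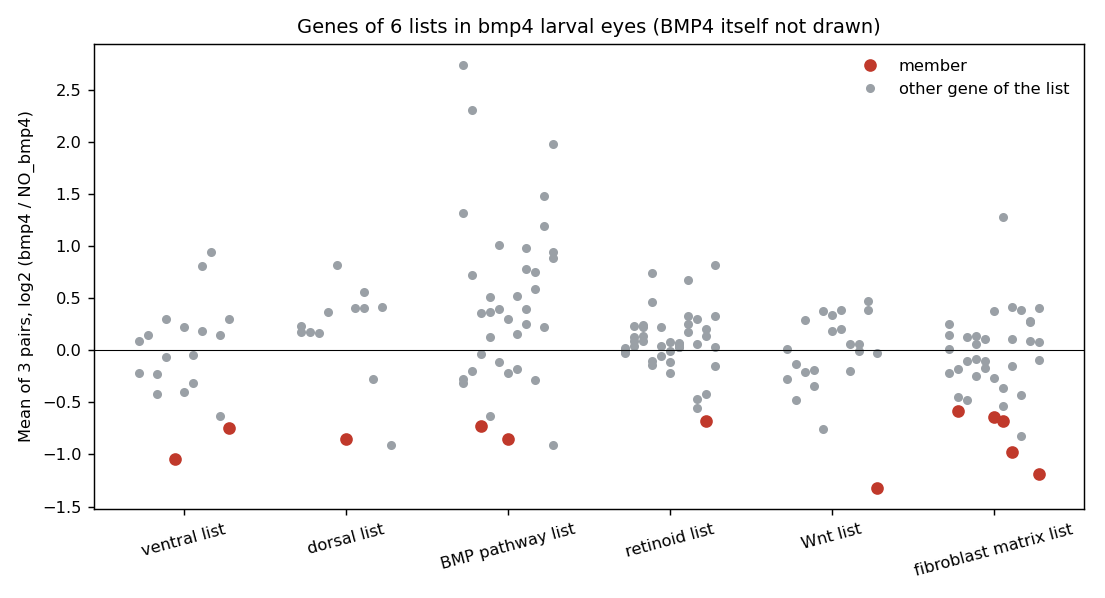
Mean log2 ratio over the 3 pairs (vertical axis) of the genes of 6 lists past the TPM minimum, with members in red and other genes in grey; BMP4 is not drawn and horizontal position within a list has no meaning. The same libraries chose the members, so the rule fixed their place below 0. Among the other genes of the BMP list most lie above 0.

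Genes of the extracellular matrix and its turnover came next. KERA, a leucine-rich proteoglycan known from the corneal stroma, was at 7.63, 8.28 and 7.99 TPM in bmp4, against 14.07, 17.45 and 17.28 TPM in NO_bmp4. FMOD (ENSDARG00000010294), a related proteoglycan that binds collagen fibrils, was at 0.99, 1.11 and 0.91 TPM in bmp4, against 3.36, 2.73 and 2.7 TPM in NO_bmp4. The 2 genes for chains of the same beaded collagen, col6a1 and COL6A2, were both members. For col6a1 the levels were 5.06, 4.37 and 5.28 TPM in bmp4 and 8.2, 7.77 and 7.74 TPM in NO_bmp4, and for COL6A2 they were 4.3, 3.37 and 3.24 TPM in bmp4 and 6.71, 5.46 and 6.16 TPM in NO_bmp4. COL6A3, the gene of a further chain, missed the limit in pairs 11 and 13 with -0.47, -0.66 and -0.23. POSTN (ENSDARG00000043806), an adhesive matrix protein, was at 15.76, 13.4 and 19.65 TPM in bmp4, against 23.54, 21.15 and 29.15 TPM in NO_bmp4. Also in this group were SPON2, a matrix protein at 0.95, 0.85 and 1.59 TPM in bmp4 and 2.92, 2.33 and 3.41 TPM in NO_bmp4, ADAMTS3, which trims procollagen, PAPPA2, which cleaves binding proteins of insulin-like growth factors, and serpinf1, the secreted factor PEDF. Of 33 other genes of a fibroblast matrix list, 12 were lower (36.4%) and 10 higher (30.3%) in all 3 pairs. Of all genes past the minimum, 10.4% were lower and 34.6% higher. The fibrillar collagen gene COL1A2 had log2 ratios of -0.07, 0.18 and 0.2.

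The member with the highest level was the gelsolin-family gene scinla, known as abundant in zebrafish cornea. It was at 1000.3, 841.14 and 948.6 TPM in bmp4, against 1475.23, 1377.68 and 1594.92 TPM in NO_bmp4. AQP3, a channel for water and glycerol, was at 54.55, 55.04 and 57.44 TPM in bmp4, against 83.26, 83.64 and 84.73 TPM in NO_bmp4. CLDN11 (ENSDARG00000020031), of the tight junction claudins, was at 9.78, 9.8 and 10.72 TPM in bmp4, against 23.97, 21.46 and 24.47 TPM in NO_bmp4. A list of markers of cornea and surface epithelium, which holds none of the members, moved the same way. It summed to 8446.75 to 9412.15 TPM in bmp4 and 9589.19 to 10708.48 TPM in NO_bmp4, and 20 of its 38 genes past the minimum were lower in all 3 pairs while 2 were higher. The fibroblast matrix list, which holds 5 of the members, summed to 1155.31 to 1217.19 TPM in bmp4 and 1220.31 to 1280.63 TPM in NO_bmp4. The Mueller glia list summed to 3091.87 to 3409.85 TPM in bmp4 and 3573.15 to 3880.3 TPM in NO_bmp4. Of 20 genes of the Mueller glia list past the minimum, 6 were lower and 8 higher in all 3 pairs. Its lower sum is therefore not read as a change shared by its genes. None of these 3 lists had a gene at 0 in all 6 libraries, and their part in the members' values was not tested. They were the only lists of 31 whose sums were lower in bmp4 without overlap. The fibroblast matrix sums, however, include the 5 members that the rule chose for being lower. Its highest bmp4 sum, 1217.19 TPM, lay just below its lowest control sum, 1220.31 TPM, so that separation is not read as a result.

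Genes with names from immune defence and blood were scattered among the members. A list of 20 genes of macrophages and immunity, without members, had 2 lower and 2 higher in all 3 pairs (10.0% each). Of all genes past the minimum, 10.4% were lower and 34.6% higher. The defensin gene defbl1 was at 29.59, 39.77 and 21.17 TPM in bmp4, against 62.9, 83.75 and 39.99 TPM in NO_bmp4, and lypc, of the Ly6 family, was at 27.7, 42.39 and 18.45 TPM in bmp4, against 54.28, 72.29 and 38.77 TPM in NO_bmp4. In lypc the bmp4 library 12 lay above the control library 13, so the groups overlapped although each pair differed. Among wild-type tissues at 1 month, defbl1 and lypc were highest in RPE, at 1268.72 and 676.06 TPM on average. Of 18 genes of an iridophore and xanthophore list, 5 were lower and 1 higher in all 3 pairs, against 10.4% and 34.6% of all genes past the minimum. The part of these cells was not tested. The chemokine genes ccl25b and cxcl8b.1, the macrophage growth factor csf1b, the clotting subunit gene f13a1b and ifitm1, of an interferon-induced family, were members too. Like 49 of all 68 members, these genes showed no overlap. HBE1 (ENSDARG00000087390), a globin gene, was at 80.73, 46.21 and 5.4 TPM in bmp4, against 153.66, 163.76 and 9.72 TPM in NO_bmp4. Its level varied far more between pairs than within them, and the red blood cell list, which does not hold it, summed to 284.4 to 608.53 TPM in bmp4 and 271.34 to 717.8 TPM in NO_bmp4. The small heat shock protein gene hspb9 was at 3.08, 4.88 and 1.51 TPM in bmp4, against 11.61, 12.98 and 2.66 TPM in NO_bmp4, also with overlapping groups.

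The remaining members with symbols have varied roles. They include FBXO32, a ubiquitin ligase known from muscle atrophy, at 1.56, 1.15 and 0.9 TPM in bmp4 and 3.66, 1.9 and 1.59 TPM in NO_bmp4, the transporter SLC22A13, the LIM protein gene FHL3, the carnosinase gene cndp1, the sulfatase gene ARSJ and the gut peptide gene pyya. PI15 and crispld1b encode secreted proteins of the CRISP family, unc119c belongs to a family of lipid-binding chaperones of photoreceptors, and jac3 and jac6 are jacalin-like lectins. RAC1, FIBCD1, EEF1AKMT2 and ighv14-1 complete the members with protein names. Of the 68, 8 have no symbol and 3 are 5S ribosomal RNA genes, and 14 carry a symbol that several identifiers share. Those copies may divide reads among them. The most negative weakest pair of all was that of ENSDARG00000089210, at 2.77, 4.01 and 1.85 TPM in bmp4 and 11.55, 20.81 and 6.89 TPM in NO_bmp4, followed by ENSDARG00000082634, whose 12 counts over 6 libraries carry little weight. Next after SFRP2 came si:dkey-222f2.3, at 5.33, 1.45 and 0.36 TPM in bmp4 and 12.25, 8.56 and 1.91 TPM in NO_bmp4. The 5S RNA genes had 11 to 28 counts each over the 6 libraries.

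The limit cut through a continuous range. Just inside it were col6a1, pyya and PDGFC, with weakest pairs of -0.512, -0.511 and -0.51. Just outside were NME4, HPD and krt1-19d, with -0.494, -0.492 and -0.489.

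Some members are neighbours on their chromosomes. A RefSeq table of assembly GRCz12tu, used for gene order only, placed 37 of the members by an exact and unique symbol, on 17 chromosomes, and 12 of these lay within 50 protein-coding genes of another member. How many of 37 genes drawn at random would lie so close was not counted, so the 12 are given as a description only. On chromosome 7, cxcl8b.1, f13a1b, jac6, jac3 and VAX2 lay in a stretch of 32 protein-coding genes. Of the 6 other genes there that could be matched and passed the TPM minimum, 3 were lower in all 3 pairs and 0 were higher, against 10.5% lower and 34.4% higher among all placed genes. All 3 are further jacalin-like genes (jac4, jac8, jac9), and the part of reads shared among copies was not tested. On chromosome 17, CYP26C1, si:ch73-288o11.5 and VAX1 lay within 44 protein-coding genes, where 4 of 15 others were lower in all pairs and 1 was higher. The collagen genes COL6A2 and col6a1 on chromosome 11, and hspb9 and pyya on chromosome 3, each lay within 3 protein-coding genes.

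Where the members are expressed was read in the wild-type tissues at 1 month, in libraries the rule did not use. Most tested members were higher outside the retina. In edgeR's quasi-likelihood test 52 members passed the filter on low counts. Of these, 37 were higher in RPE than in retina (71.2%), against 35.9% of all genes tested, and 7 were lower, against 33.2%. In sclera with choroid against retina, 38 were higher (73.1%), against 37.9%, and 7 were lower, against 35.6%. Among tested genes past the same TPM minimum in larval controls, 31.2% were higher and 40.7% lower in RPE, and 30.9% higher and 43.8% lower in sclera with choroid. The wild-type retina libraries serve in both comparisons. Some members were near 0 in wild-type retina, such as FMOD with 0, 1 and 0 counts and csf1b with 1, 2 and 2 counts. These could pass the filter only through the other tissues, so the filter fixed that they were higher in at least 1 of them. FMOD, with 3, 5 and 2 counts in wild-type RPE, passed through sclera with choroid alone. The filter fixed its direction there, and its higher call in RPE rests on these few counts. How many members this covers was not counted, and the shares of higher members are given as a description only. The tissue of highest mean level was sclera with choroid for 27 of all 68 members (39.7%), RPE for 18 and retina for 18 (26.5% each), with 5 under 1 TPM in all. Of all genes past the minimum, 15.6% peaked in sclera with choroid, 23.0% in RPE and 60.8% in retina.

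**Figure D3:**
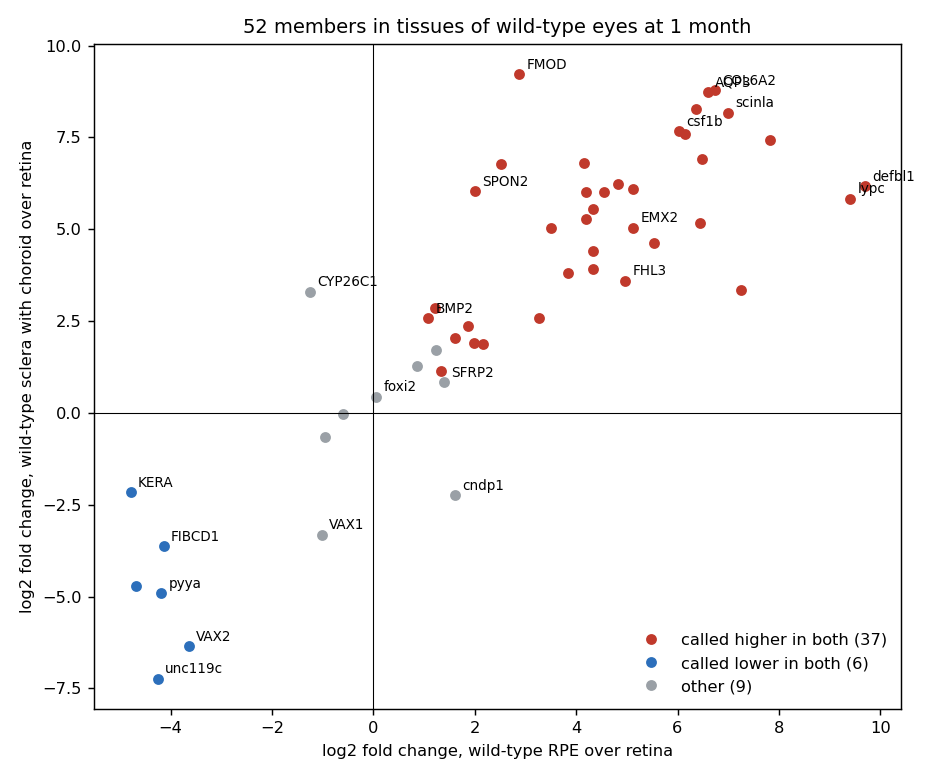
The edgeR log2 fold changes of the 52 tested members in wild-type RPE over retina (horizontal) and sclera with choroid over retina (vertical); red marks members called higher in both, blue those called lower in both, grey the others, at an adjusted p under 0.05. The 37 red members fill the upper right, and VAX2, KERA, unc119c, FIBCD1, si:dkey-23o4.6 and pyya lie at the lower left.

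Named genes showed both directions. In wild type AQP3 was at 1701.42 ± 20.8 TPM in sclera with choroid and 475.82 ± 40.1 TPM in RPE, against 5.68 ± 4.79 TPM in retina (SD, n = 3 each). COL6A2 reached 388.58 TPM in sclera with choroid, on average, and 1.23 TPM in retina, while defbl1 reached 1268.72 TPM in RPE and 1.81 TPM in retina. BMP2 was higher outside the retina too, with a log2 fold change of 2.58 in sclera with choroid over retina (SE 0.156, adjusted p in edgeR 5.46e-07), and so was BMP7, with 2.04. VAX2 went the other way, at 0.52 to 1.72 TPM in RPE and 0 to 0.49 TPM in sclera with choroid, against 16.98 to 21.62 TPM in retina. The photoreceptor chaperone gene unc119c averaged 1.21 TPM in sclera with choroid and 258.05 TPM in retina. KERA, at 763.57, 1024.65 and 1211.67 TPM in wild-type retina, was the highest member there, against 14.07 to 17.45 TPM in larval control eyes. VAX1 was lower in sclera with choroid, with a log2 fold change of -3.31, and was not called in RPE, with -1.02. The high members of sclera with choroid lie beside the large sum of cornea and surface epithelium markers given above, whose part in these levels was not tested.

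The members were then followed into lrp2 mutants. Whole mutant eyes gave no call among 53 members tested, against 0.374% of all genes called higher and 0.56% called lower by edgeR. At an unadjusted p under 0.05 in edgeR there were 10 of the 53 (18.9%), against 14.1% of all genes, and DESeq2 called 3 of 68 (4.41%), against 3.62% of all genes. The median log2 fold change of the members was 0.07, against 0.01 for all genes tested. VAX2 was at 6.09, 7.36 and 10.59 TPM in mutant eyes and 9.59, 10.96 and 8.74 TPM in wild-type eyes, in the order 1, 2, 3, and these ranges overlapped.

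In mutant RPE 1 of 50 tested members was called, FBXO32, and it was lower. It was at 8.89, 10.91 and 8.16 TPM in mutant RPE (libraries 12, 13 and 21), against 20.69, 22.5 and 17.96 TPM in wild-type RPE, a log2 fold change of -1.28 (SE 0.157, adjusted p in edgeR 0.0289). The groups did not overlap. Of all genes, 0.574% were called higher and 0.798% lower. The call was lost in 5 of the 6 fits that left out 1 library, with adjusted p up to 0.115, and without mutant library 21, which had the lowest correlation to its group of the 1-month libraries, 6 members were called, while leaving out any other library left 0. The red blood cell list summed to 3226.17 to 5541.11 TPM in mutant RPE and 16802.75 to 21034.5 TPM in wild-type RPE, and the surface epithelium list to 6024.13 to 38552.54 TPM in mutant RPE and 15526.65 to 18369.23 TPM in wild-type RPE. Their part was not tested.

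Mutant retina gave calls in both directions. Of 45 members tested, 4 were higher, against 8.13% of all genes, and 5 were lower, against 11.3% (11.1% of the members). Of the 4 higher ones, 3 are genes without a symbol that reached the filter's count level in all 3 mutant libraries and in at most 1 wild-type library, so the filter fixed their direction and the count of higher members is not read against all genes. On the TPM scale in limma the split was 6 higher and 2 lower among 56 members, against 12.4% of all genes called in either direction. VAX2 was at 14.32, 13.39 and 8.66 TPM in mutant retina, against 21.48, 16.98 and 21.62 TPM in wild-type retina, a log2 fold change of -0.76 (SE 0.178, adjusted p in edgeR 0.0167). BMP2 (ENSDARG00000041430) was at 1.44, 1.87 and 0.81 TPM in mutant retina, against 2.97, 2.56 and 2.59 TPM in wild-type retina, a change of -1.06 (SE 0.29, adjusted p in edgeR 0.0301). Both genes, lower in bmp4 larval eyes by the rule, are among the 5 members called lower in mutant retina. That share of the members, 11.1%, is close to the 11.3% of all genes, so no shared response is read from these genes. VAX1, by contrast, was not called, at 15.78, 14.97 and 12.98 TPM in mutant retina and 16.54, 14.92 and 15.05 TPM in wild-type retina. The secreted factor serpinf1 was at 1.91, 1.02 and 1.48 TPM in mutant retina, against 3.62, 5.49 and 4.87 TPM in wild-type retina (-1.70, SE 0.299, adjusted p in edgeR 0.00451). The other genes called lower were unc119c, with a log2 change of -0.49, and si:dkey-23o4.6, with -0.86. FBXO32 was higher, the opposite of its direction in RPE, at 4.42, 3.02 and 2.43 TPM in mutant retina and 0.96, 1.24 and 1.34 TPM in wild-type retina (1.19, SE 0.283, adjusted p in edgeR 0.0171).

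Leaving out 1 library ended some of these calls while the fold changes kept their direction. For VAX2 this held without wild-type library 11 or 13, with log2 changes of -0.70 and -0.72 and adjusted p of 0.0626 and 0.0508 in edgeR. For BMP2 it held in 5 of 6 such fits, with log2 changes of -0.85 to -1.28 over all 6 and adjusted p of up to 0.102 in edgeR. Over all 13 alternatives tried, which include these fits and other settings, VAX2 lost its call in 5 and BMP2 in 7. Without wild-type library 12, the one with lens genes, VAX2 was called at -0.80 and BMP2 was not, at -1.04 with an adjusted p of 0.066 in edgeR. FBXO32 lost its call without mutant library 11 or wild-type library 11, with 1.06 in both fits. The calls of serpinf1 and unc119c were kept in all 6. AQP3 and scinla had large log2 changes that were not called, -1.94 and -2.05, and wild-type retina library 12 held scinla at 111.58 TPM, against 15.85 and 16.99 TPM in the other wild-type libraries and 10.49 to 15.34 TPM in mutant retina. The same library held jac6 at 120.83 TPM, against 0.46 and 0.51 TPM. This is the library with the lens genes. It also held the highest sum of the surface epithelium list, 828.94 TPM, against 382.02 and 464.78 TPM in the other wild-type libraries and 388.73 to 424.75 TPM in mutant retina, 2 of the list's 34 tested genes being called higher and 8 lower. The rod list summed to 45598.36 to 50192.16 TPM in mutant retina and 51499.75 to 58922.38 TPM in wild-type retina. It was 1 of 6 lists of 31 whose sums were lower in mutant retina without overlap. Another 4 were higher, those of the BMP pathway, muscle, blood vessels, and heat shock and chaperones. The BMP list, which holds 2 members, summed to 1185.82 to 1304.05 TPM in mutant retina and 948.45 to 1035.4 TPM in wild type. The muscle list summed to 287.7 to 315.51 TPM in mutant retina and 235.43 to 240.78 TPM in wild type. The part of these lists in the members' changes was not tested.

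Mutant sclera with choroid gave 6 higher calls among 48 members tested, against 2.81% of all genes, and 3 lower calls (6.25%), against 3.82%. Of the 6, the gene ENSDARG00000098136 reached the filter's count level in 0 wild-type libraries, so the filter fixed its direction, and the other 5 reached it in all 3. SOSTDC1, the BMP and Wnt antagonist, was at 44.23, 47.91 and 39.56 TPM in mutant sclera with choroid, against 16.01, 19.76 and 16.95 TPM in wild type, a log2 change of 1.16 (SE 0.116, adjusted p in edgeR 0.00413). EMX2 was at 31.28, 29.07 and 31.06 TPM in the mutant and 15.4, 18.56 and 20.76 TPM in wild type (0.58, SE 0.119, adjusted p in edgeR 0.0368). Both genes were higher here, and both are lower in bmp4 larval eyes by the rule, as is every member. No opposite response is therefore read from these calls. The transporter SLC22A13 was at 38.76, 50.91 and 61.05 TPM in the mutant and 15.21, 12.22 and 18.34 TPM in wild type (1.60, SE 0.281, adjusted p in edgeR 0.0245), and f13a1b at 101.34, 95.68 and 111.91 TPM in the mutant and 26.31, 50.9 and 28.07 TPM in wild type (1.41, SE 0.218, adjusted p in edgeR 0.0169). SPON2 was lower, at 26.65, 18.02 and 26.02 TPM in the mutant and 39.41, 42.7 and 42.92 TPM in wild type (-1.02, SE 0.145, adjusted p in edgeR 0.013). The chemokine gene ccl25b was lower as well, at 386.15, 541.49 and 488.3 TPM in the mutant and 741.43, 736.94 and 652.22 TPM in wild type (-0.75, SE 0.148, adjusted p in edgeR 0.0329), and so was si:ch73-288o11.5, with -1.66. None of these groups overlapped.

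**Figure D4:**
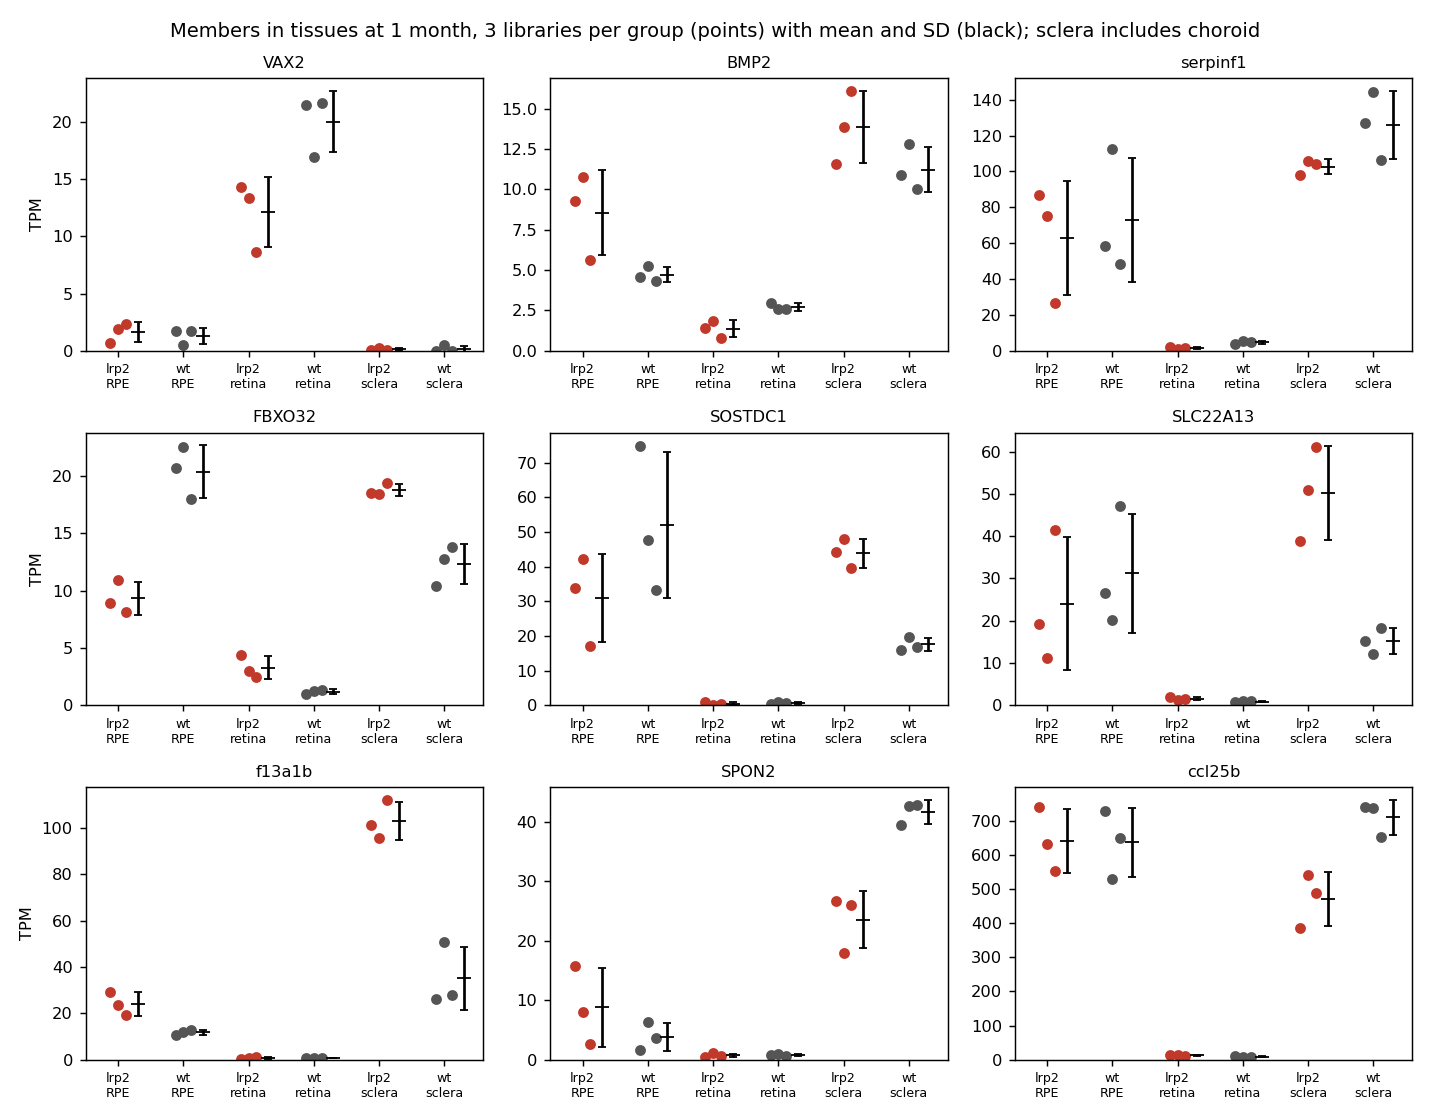
Level in TPM of 9 members in lrp2 mutant (red) and wild-type (grey) RPE, retina, and sclera with choroid at 1 month, with the mutant left of its wild type; points are the 3 libraries, black marks the mean and SD. FBXO32 lies below wild type in mutant RPE and above it in mutant retina, and SOSTDC1, SLC22A13 and f13a1b lie above wild type in mutant sclera with choroid.

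These calls were sensitive to single libraries as well. Without mutant library 12 or 13 of sclera with choroid 3 members were called, and without wild-type library 11 or 12 there were 4, while SOSTDC1 and SPON2 kept their calls in all 6 fits that left out 1 library. The call of ccl25b was lost in all 6, with adjusted p up to 0.0981 in edgeR. EMX2 lost its call in 5 of 6, with log2 changes of 0.50 to 0.70 and adjusted p up to 0.113 in edgeR, si:ch73-288o11.5 in 5, SLC22A13 in 4 and f13a1b in 3, all with the same direction. SOSTDC1, SLC22A13 and EMX2 had their highest wild-type level in RPE, at 51.98, 31.25 and 23.54 TPM on average, and the list of RPE and melanin genes summed to 576.1 to 918.81 TPM in mutant sclera with choroid and 503.48 to 563.73 TPM in wild type. It was 1 of 12 lists of 31 whose sums were higher in mutant sclera with choroid without overlap, and these include lists of retinal neurons, lens and pigment cells. The bipolar cell list, for example, summed to 241.82 to 265.73 TPM in the mutant and 160.83 to 182.78 TPM in wild type, and the lens list to 559.58 to 610.88 TPM in the mutant and 372.37 to 511.67 TPM in wild type. On the same TPM scale, in limma, the median log2 change of all genes was 0.155 here, with 33.6% of genes negative. The number of higher lists is therefore not read as a result about their cell types. In mutant RPE, SOSTDC1 was at 33.78, 42.24 and 17.24 TPM, against 74.89, 47.82 and 33.23 TPM in wild-type RPE. The list of Mueller glia summed to 3990.29 to 4725.77 TPM in mutant sclera with choroid and 6234.48 to 7787.69 TPM in wild type. The part of these lists was not tested.

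Calls of 2 genes without a symbol recurred in the mutant tissues. ENSDARG00000098136 was at 126.73, 193.93 and 98.85 TPM in mutant retina, against 1.47, 0.8 and 0 TPM in wild-type retina (log2 change 7.38, SE 0.579, adjusted p in edgeR 0.00173). In sclera with choroid it had 995 counts in the mutant and 1 count in wild type, a ratio of 1050 with a 95% exact binomial interval of 188 to 41400 that covers counting error only. In mutant RPE it was at 108.95, 22.48 and 10.06 TPM, against 0.35, 0 and 0 TPM in wild type, and was not called. In larval eyes it was at 4.62, 3.01 and 0 TPM in bmp4 and 9.1, 7.02 and 0.36 TPM in NO_bmp4, so it varied widely between larval pairs too. ENSDARG00000040067 was at 13.01, 8.76 and 11.09 TPM in mutant sclera with choroid, against 0.62, 1.7 and 2.48 TPM in wild type (2.70, SE 0.419, adjusted p in edgeR 0.0165), and was also called higher in mutant retina. A further gene without a symbol was called higher in mutant retina at 3.49, 1.67 and 1.26 TPM, against 0.6, 0 and 0 TPM in wild type. The filter fixed the direction of these genes in retina, and that of ENSDARG00000098136 in sclera with choroid as well.

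The mutant effect itself was compared between tissues in 1 fit of all 24 libraries, which was not repeated with single libraries left out. Of 58 members tested, 2 were higher and 2 lower for RPE minus retina, against 0.872% and 1.05% of all genes. FBXO32 differed by -2.48 on the log2 scale (SE 0.313, adjusted p in edgeR 0.000356), BMP2 by 1.74 (SE 0.328, adjusted p in edgeR 0.00776) and PDGFC by 1.74 (SE 0.358, adjusted p in edgeR 0.0139). PDGFC was at 30.36, 39.14 and 23.31 TPM in mutant RPE and 18.18, 15.16 and 20.34 TPM in wild-type RPE, and at 0.74, 0.31 and 0.41 TPM in mutant retina and 1.05, 1.08 and 1.04 TPM in wild-type retina. FHL3 differed by -1.14. For sclera with choroid minus retina, 1 member was higher and 1 lower, against 1.06% and 1.38%, namely ADAMTS3, by 1.22, and ccl25b, by -1.34. For sclera with choroid minus RPE, 2 were higher, against 0.352%, namely SLC22A13, by 2.37, and FBXO32, by 1.52, and 0 were lower, against 0.331%. At an unadjusted p under 0.05 in edgeR there were 13 members in the last contrast (22.4%), against 11.6% of all genes, and DESeq2 called 7 members higher and 3 lower (14.7% of 68), against 2.14% of all genes.

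Eyes with the shh transgene gave no call. Of 58 members tested 0 were called by edgeR, against 0% of all genes in each direction. The transgene's own gene SHH (ENSDARG00000068567) was thus not called either, at 31.92, 94.58 and 14.4 TPM in shh and 4.19, 11.34 and 4.19 TPM in NO_shh. The absence of calls therefore does not show that the members were unchanged. At an unadjusted p under 0.05 in edgeR there were 0 members, against 0.543% of all genes, and DESeq2 called 0, against 0.00718% of all genes. The members' median log2 fold change was 0.22, against 0.00 for all genes, and it was 0.03 without shh library 13, the one that stood apart. On the TPM scale the median was -0.12, against -0.32 for all genes, so the sign of the members' median depends on the scaling. VAX2 was at 21.82, 19.18 and 0.04 TPM in shh and 25.77, 21.2 and 16.13 TPM in NO_shh, with library 13 of shh near 0. SFRP2 was at 8.77, 8.62 and 2.36 TPM in shh, against 7.27, 8.33 and 10.21 TPM in NO_shh, and BMP2 at 8.55, 5.84 and 5.29 TPM, against 6.27, 3.99 and 4.97 TPM. The groups overlapped in all 3 genes. In TPM, KERA, AQP3 and scinla were also lower in shh library 13 than in the other shh libraries, at 8.04, 44.97 and 950.13 TPM. In counts the drop was smaller for AQP3, at 1982, 1919 and 1695, and for scinla, at 68338, 58900 and 56822. Other members had their highest shh count in library 13, such as CLDN11, at 294, 228 and 413, and jac6, at 158, 112 and 406. How many members went each way in that library was not counted.

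**Figure D5:**
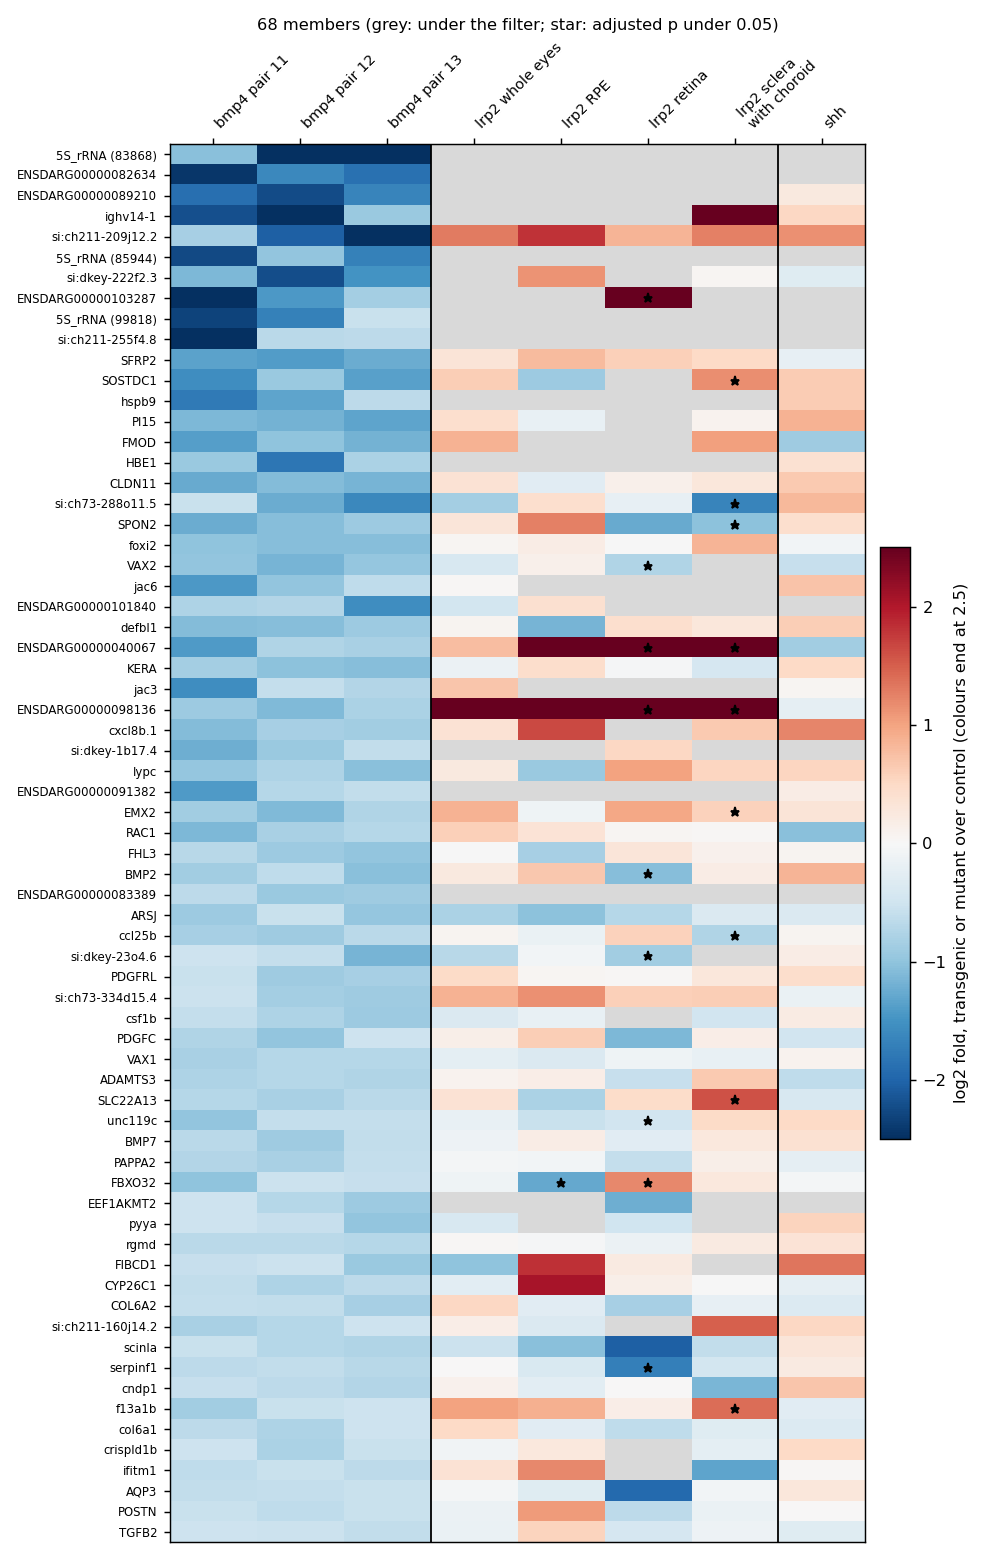
Log2 ratios of the 68 members in the 3 bmp4 pairs (left, which chose them), and edgeR log2 fold changes in 4 lrp2 comparisons and in shh eyes (right); red is higher and blue lower in the transgenic or mutant eyes, grey is under the filter on low counts, and a star marks an adjusted p under 0.05. The columns of whole eyes and shh hold no star, and FBXO32 has stars of opposite sign in RPE and retina.

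Over the 5 comparisons of lrp2 and shh, 16 of 62 members tested in any were called at least once (25.8%), against 21.2% of all genes, and 3 at least in 2 of them (4.84%), against 2.84%. Those 3 were FBXO32, with opposite signs, and the unnamed genes ENSDARG00000098136 and ENSDARG00000040067, whose direction the filter fixed in at least 1 tissue, so nothing is read from these shares. On the TPM scale the median of all genes was 0.16 in mutant RPE and in mutant sclera with choroid, -0.32 in shh, -0.21 in wild-type RPE over retina and -0.49 in wild-type sclera with choroid over retina, and near 0 after scaling, so all fold changes are relative to that shift.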

How the data were processed

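The authors deposited expected counts and TPM per gene for 36 libraries, 1 set for 1 month and 1 for each transgenic line. HISAT, Bowtie2 and build GRCz10 are named per the submitters' processing notes; their roles and versions, the counter and strand handling are not given in the labels or headers, so overlapping, antisense and near-identical genes are uncertain. The members come from the deposited TPM. For all other comparisons the deposited expected counts were rounded and fitted over all genes with edgeR 4.0.16 in R 4.3.3 (filterByExpr, TMM, robust quasi-likelihood F test, two-sided, Benjamini-Hochberg adjustment over all genes tested, called under 0.05), and SE were taken from the F statistic. The test was tried on simulated counts with the same spread for all genes and no library that stood apart. That trial does not show how the test performs in data such as shh. Tables of the larval lines were normalized separately and were tested only within each table. Symbols, in capitals for human orthologues, came from a table naming 26108 of 31916 identifiers; identifiers without one held 2.22% of counts. The members and gene lists were chosen with earlier results of these data known. Genes were named by a rule: the 10 strongest, those nearest the limit, up to 4 called per direction and comparison, those called at least in 2, those of patterning, matrix and signalling lists, and the most abundant; others named, such as SOSTDC1, EMX2, unc119c, FHL3, ADAMTS3 and the neighbours, were chosen after their values were seen. Same-numbered larval libraries deviated together, so the numbers pair them. Their correlations were 0.447 to 0.585 in the bmp4 table and 0.247 to 0.376 in the shh table. At 1 month the correlations ran from -0.296 in RPE to 0.232 in whole eyes. No pair of libraries of a group agreed within counting noise (chi-square per degree of freedom 11.8 to 277). Alternatives tried were DESeq2 1.42.0, limma 3.58.1 on log2(TPM + 0.5) or log2(TPM + 0.1), RLE size factors, no filter, a replicate block, 1 fit of all 24 libraries of 1 month, and leaving out each library. The interaction tests were repeated only with DESeq2, RLE size factors and a replicate block.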

Additional observations from a re-analysis of the deposited data

Results flagged for a closer look

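The mutant effect differed between tissues in 8 results, each by an interaction test over the 24 libraries of 1 month in edgeR. These tests were not repeated with 1 library left out or in limma. Within 1 tissue, FBXO32 in RPE and BMP2 in retina each lost their call in 5 of 6 fits without 1 library. FBXO32 stood out in both contrasts with RPE. Its mutant effect was -1.28 on the log2 scale in RPE, 1.19 in retina and 0.26 in sclera with choroid, so that RPE minus retina came to -2.476 and sclera with choroid minus RPE to 1.518 (adjusted p in edgeR 0.000356 and 0.0173). BMP2 (ENSDARG00000041430) differed for RPE minus retina by 1.735, with 0.68 in RPE and -1.06 in retina. PDGFC differed in the same contrast by 1.744, with 0.61 in RPE and -1.13 in retina. FHL3 differed by -1.135, with -0.84 in RPE and 0.30 in retina, at 33.77, 39.32 and 27.65 TPM in mutant RPE and 60.27, 56.69 and 44.38 TPM in wild-type RPE. For sclera with choroid minus retina, ADAMTS3 differed by 1.217 (adjusted p in edgeR 0.0468) and ccl25b by -1.34. ADAMTS3 was at 7.59, 10.96 and 10.57 TPM in mutant and 4.09, 6.23 and 6.36 TPM in wild-type sclera with choroid. SLC22A13 differed for sclera with choroid minus RPE by 2.368 (adjusted p in edgeR 0.0451), with 1.60 in sclera with choroid and -0.79 in RPE. Differences in dissection between the mutant and wild-type tissues, such as the sums of red blood cell and surface epithelium markers in RPE, stand beside these values and their part was not tested.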

How the results depend on the processing

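The 68 members became 39 with a control minimum of 5 TPM, 9 with a limit of -1, 24 where all 9 ratios across pairs had to pass without the replicate block, and 146 to 189 when 1 pair was left out. Pseudocounts of 0.1 and 1 TPM gave 77 and 49, a minimum of 1 TPM gave 95, and CPM scaled by TMM gave 74, of which 49 are members. DESeq2 called 3 members in whole mutant eyes (3.62% of all genes), 10 in RPE (6.25%) and 19 in sclera with choroid (10.5%). For the interactions it called 9 for RPE minus retina (3.92% of all genes), 4 for sclera with choroid minus retina (4.78%) and 10 for sclera with choroid minus RPE (2.14%). The fit of all 24 libraries called 1 in whole eyes (1.93% of all genes) and 11 in RPE (8.36%), and limma called 2 in RPE with either pseudocount (1.71% and 1.59%). With 1 library left out, the calls ranged over 0 to 6 in RPE, 6 to 9 in retina, 3 to 8 in sclera with choroid, 43 to 45 in wild-type RPE and 45 to 46 in wild-type sclera with choroid, and stayed at 0 in whole eyes and shh. Same-numbered libraries of 1 month deviated together weakly at most, with correlations of 0.232, 0.173 and 0.016 in whole eyes. There the replicate block left 0 members called, with 1.91% of all genes called. The replicate block gave 0 calls in RPE (0% of all genes), 4 in sclera with choroid (1.74%), 10 in retina (16.2%) and 6 for sclera with choroid minus RPE (0.948%), and for FHL3 the adjusted p in edgeR became 0.0661. It left 0 calls in shh, where the numbers do pair the libraries. None of the called members changed sign under any alternative that was run, but the members' median log2 change did, in shh (0.22, and -0.12 or -0.15 in limma on TPM), in mutant RPE (0.09, and -0.04 in DESeq2, -0.02 without a filter and -0.004 without wild-type library 12) and in mutant retina (-0.03, and 0.005 without wild-type library 12). Of the 19 calls of single members in mutant tissues, 17 were lost under at least 1 alternative, among them SOSTDC1 and unc119c in the fit of all 24 libraries (adjusted p in edgeR 0.0502 and 0.685). The causes were not tested. Members with few counts limit the precision: 8 had fewer than 50 counts over the 6 larval libraries. A search of promoters for motifs was not run.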
